A study of Mus musculus with 8 samples.

Results

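Open chromatin was examined at the genes of the Tead transcription factors and their coactivators in mouse satellite cells, which lie beneath the basal lamina of muscle fibres and regenerate them. The 9 genes were listed by name and not by their values: Tead1, Tead2, Tead3, Tead4, Yap1, Wwtr1, Vgll2, Vgll3 and Vgll4. They are 9 of 34328 genes, protein-coding or long noncoding, on the autosomes and X, and all 9 were among the 27938 genes with enough covered length to be tested. The assay was ATAC-seq, which marks accessible DNA by inserting sequencing adapters with a transposase, and the broad peaks called on each library were used. All groups came from C57BL/6 mice and held 2 libraries each. The first, LncMyod siRNA, was cultured with an siRNA against LncMyod for 48 h before harvest. LncMyod is a noncoding transcript whose gene neighbours that of the myogenic factor MyoD. The second, control siRNA, was cultured with a control siRNA, for which the labels give no time. Both cultures were taken towards differentiation. The third group, ASC, was isolated 2.5 days after muscle injury and the fourth, QSC, was freshly isolated. Neither was treated or cultured according to the labels, which do not name the kind of injury. The loss of LncMyod RNA cannot be checked in these data. The labels do not tell whether the replicates of a group came from different animals or cultures. The p-values therefore reflect the spread between these libraries alone, which may be technical.

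Tead proteins bind DNA at the MCAT element but activate poorly alone. They recruit Yap1 or Wwtr1 (also called Taz), which the Hippo kinases hold in the cytoplasm by phosphorylation. Vgll proteins bind the same face of Tead and can compete with Yap1 and Wwtr1, and Vgll4 is known as an antagonist of Yap1. In muscle, Yap1 is known to promote the proliferation of satellite cells, Tead4 is a target of MyoD in differentiating myoblasts, and Vgll2 and Vgll3 are cofactors of muscle genes.

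RefSeq promoter windows (GRCm38.p6, 250 bases before to 50 bases after an annotated start) were held for 7 of the 9 genes, in 10 windows. Peaks of all 8 libraries overlapped every one of these windows, but the share of all windows so overlapped is not given here. The core of the MCAT element was searched as GGAATG on both strands, because it is the sequence that Tead proteins themselves bind. It stood in 7 of the 10 windows and in 5 of the 7 genes, against 14.7% of 32851 windows and 16.6% of 27025 genes in the whole table. One window of each of those 5 genes is shown, 5′ to 3′ on the gene's strand, with GGAATG or its complement CATTCC in capitals.
Wwtr1 (chr3:57575861-57576160, minus strand): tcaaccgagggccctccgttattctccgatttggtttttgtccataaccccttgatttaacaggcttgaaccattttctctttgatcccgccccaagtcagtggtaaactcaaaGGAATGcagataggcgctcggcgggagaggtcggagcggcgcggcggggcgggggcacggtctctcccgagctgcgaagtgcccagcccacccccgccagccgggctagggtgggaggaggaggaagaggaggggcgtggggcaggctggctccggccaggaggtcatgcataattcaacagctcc
Yap1 (chr9:8004547-8004846, minus strand): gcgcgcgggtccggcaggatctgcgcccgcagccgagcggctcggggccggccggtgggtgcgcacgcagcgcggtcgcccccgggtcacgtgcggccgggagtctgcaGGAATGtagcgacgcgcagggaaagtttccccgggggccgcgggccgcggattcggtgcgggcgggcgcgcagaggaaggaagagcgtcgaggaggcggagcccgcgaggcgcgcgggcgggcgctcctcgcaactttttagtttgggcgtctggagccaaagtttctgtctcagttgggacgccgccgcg
Vgll3 (chr16:65814939-65815238, plus strand): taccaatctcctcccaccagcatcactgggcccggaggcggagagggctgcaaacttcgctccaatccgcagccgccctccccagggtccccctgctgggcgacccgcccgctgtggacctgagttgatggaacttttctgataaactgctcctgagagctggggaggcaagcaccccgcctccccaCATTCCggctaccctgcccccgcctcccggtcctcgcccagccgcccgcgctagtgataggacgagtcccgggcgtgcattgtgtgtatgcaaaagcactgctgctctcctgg
Vgll4 (chr6:114969154-114969453, minus strand): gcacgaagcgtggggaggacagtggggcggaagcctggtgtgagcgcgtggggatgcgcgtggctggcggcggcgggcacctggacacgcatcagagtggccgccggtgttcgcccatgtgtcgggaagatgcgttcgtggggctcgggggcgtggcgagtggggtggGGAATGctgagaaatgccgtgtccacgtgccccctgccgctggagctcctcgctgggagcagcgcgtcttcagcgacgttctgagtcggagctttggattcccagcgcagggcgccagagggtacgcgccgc
Tead3 (chr17:28350551-28350850, minus strand): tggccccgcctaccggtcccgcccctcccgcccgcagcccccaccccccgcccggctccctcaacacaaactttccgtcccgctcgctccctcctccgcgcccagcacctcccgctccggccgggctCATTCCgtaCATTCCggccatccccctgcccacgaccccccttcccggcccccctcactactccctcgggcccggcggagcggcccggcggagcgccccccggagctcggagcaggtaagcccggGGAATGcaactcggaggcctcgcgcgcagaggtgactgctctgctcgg
With the start as position 1 and the base before it as -1, the match began at -136 in Wwtr1, -141 in Yap1, -63 in Vgll3 and -82 in Vgll4. The Tead3 window held 3 matches, which began at -123, -114 and 3. A second Tead3 window, chr17:28350756-28351055, held another at -182, and a second Wwtr1 window held the same site as the first. No match was found in the windows of Tead2 and Vgll2. The E-box bound by MyoD, CAGCTG, stood in none of the 7 genes, against 18.3% of all genes. The AP-1 motif TGANTCA also stood in none, against 8.97% of all genes. A match is a string of letters, not evidence of binding.

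Peaks covered 8 of these 9 loci more densely than the median protein-coding gene. Per 100 kb of locus, the gene body extended by 10 kb each way, the mean covered length over 8 libraries was 12.1 kb at Vgll2, 11.5 kb at Tead3, 10.1 kb at Vgll4, 8.29 kb at Tead4, 8.17 kb at Wwtr1, 8.01 kb at Tead2, 7.47 kb at Vgll3, 7.18 kb at Tead1 and 3.68 kb at Yap1. The median of 17789 protein-coding genes was 4.78 kb, with quartiles of 2.62 and 7.67 kb, and Yap1 alone of the 9 lay below the median. Some loci share sequence with neighbouring genes, to which peaks may belong: Tead1 with Gm40451, Tead2 with Dkkl1, Cd37 and Slc6a16, Tead3 with Fance, Rpl10a and Tulp1, and Vgll4 with Atg7 and Gm38876. Below, covered length means the base pairs of a locus under peaks, scaled to the total covered length of the library. Changes are differences of log2(scaled bp + 500 bp), which understate changes of loci with little covered length. A locus "rose" or "fell" where limma's test over all 27938 genes gave a Benjamini-Hochberg adjusted p under 0.05.

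The libraries held 95449 and 79396 peaks with LncMyod siRNA, 82854 and 81327 with control siRNA, 70341 and 59666 in ASC and 69595 and 64991 in QSC. Median peak widths were 530 and 496 bp with LncMyod siRNA, 489 and 501 bp with control siRNA, 599 and 588 bp in ASC and 597 and 601 bp in QSC. Covered lengths of single regions given below are not corrected for these widths. The lists carry no read counts, so depth is unknown, no counting interval can be given, and the lack of a peak does not show closed chromatin. Of 6 satellite cell and myoblast marker loci, including Pax7 and Myod1, all were covered in every group, with sums of 25.9 to 31.6 kb with LncMyod siRNA, 29.6 to 31.5 kb with control siRNA, 33.6 to 35.2 kb in ASC and 30.1 to 30.8 kb in QSC. Of 5 leukocyte loci, 1 with LncMyod siRNA (Ptprc) and 3 in QSC (Ptprc, Itgam and Laptm5) had no peak in both libraries, and none lacked one in both libraries with control siRNA or in ASC. Their sums were 7.29 to 10.6 kb with LncMyod siRNA, 8.88 to 8.95 kb with control siRNA, 4.61 to 4.68 kb in ASC and 0.253 to 0.353 kb in QSC. Glial loci summed to 14.6 to 15.6 kb with LncMyod siRNA, 15.8 to 17.6 kb with control siRNA, 18.3 to 18.9 kb in ASC and 12.2 to 12.9 kb in QSC. Over all 8 libraries the sums were 10.6 to 14.8 kb for endothelial, 5.89 to 9.29 kb for fibroadipogenic and 11.2 to 15.5 kb for mural marker loci.

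**Figure D1:**
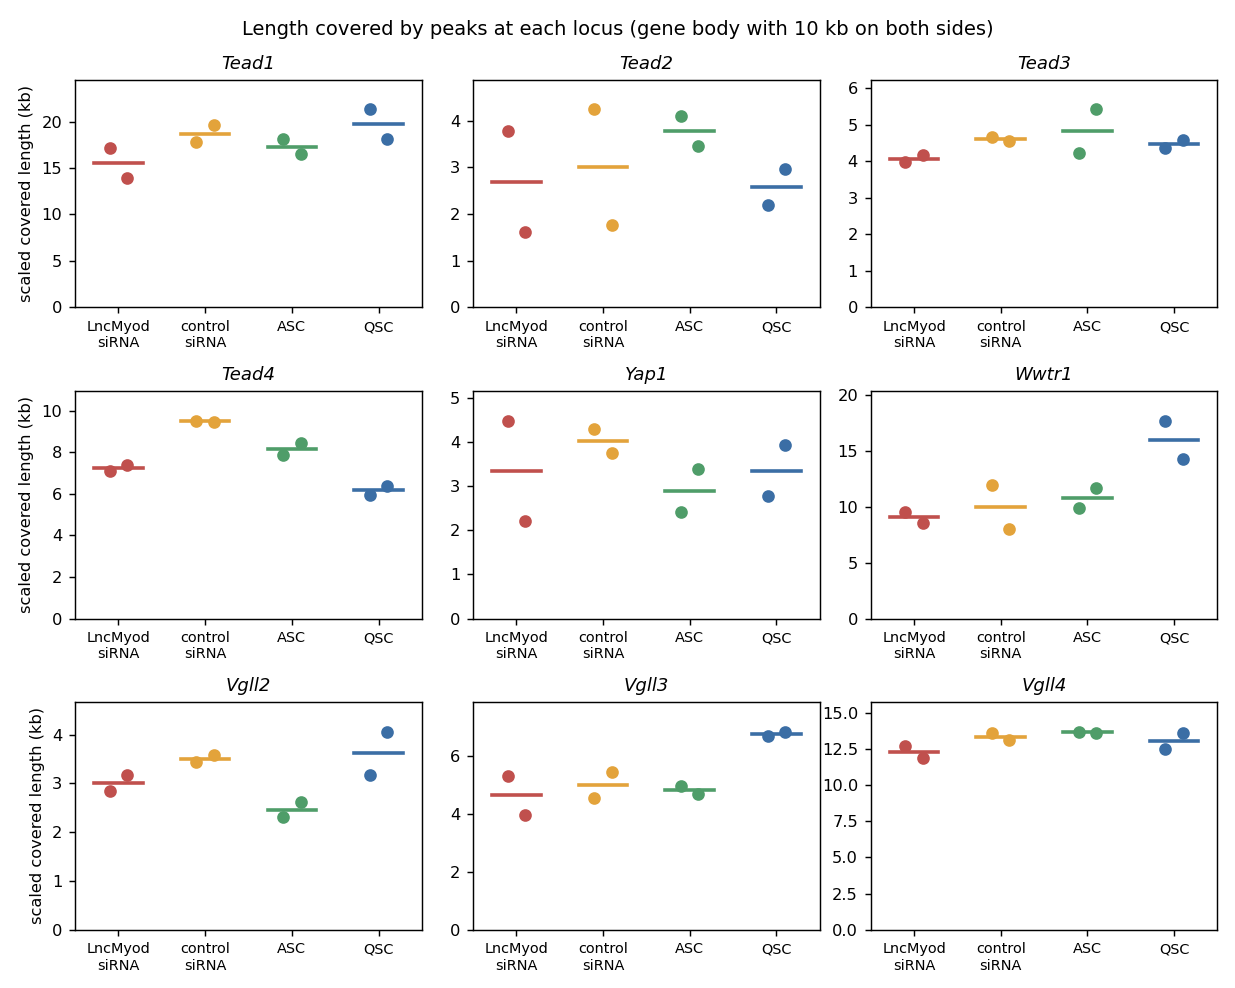
Scaled covered length in kb (y axis, from 0) at each of the 9 loci, by group (x axis), with 1 point per library and a bar at the mean of 2 libraries. Tead4 lies between 7.86 and 9.52 kb in the control siRNA and ASC libraries and between 5.95 and 6.38 kb in QSC, while Wwtr1 and Vgll3 are highest in QSC.

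Tead4, at chr6:128227143-128300813, was the member whose locus passed the test. Its covered length was 7.08 and 7.4 kb with LncMyod siRNA, 9.52 and 9.45 kb with control siRNA, 7.86 and 8.45 kb in ASC, and 5.95 and 6.38 kb in QSC. The control siRNA libraries were highest and the QSC libraries lowest, and none of the 4 groups overlapped another. Tead4 rose in control siRNA cells (9.48 ± 0.0443 kb) against QSC (6.17 ± 0.305 kb; SD, n = 2 each) by 0.58 on the log2 scale (SE 0.09, 95% interval 0.36 to 0.80, limma adjusted p = 0.00938). It also rose in ASC (8.15 ± 0.412 kb) against QSC, by 0.38 (SE 0.09, interval 0.16 to 0.60, adjusted p = 0.0427). Between control siRNA and ASC the change was 0.21 (interval -0.01 to 0.43, adjusted p = 0.249).

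Leaving out any 1 of the 4 libraries ended the call between ASC and QSC, with adjusted p = 0.162 without QSC replicate 1, 0.108 without QSC replicate 2, 0.0621 without ASC replicate 1 and 0.14 without ASC replicate 2, while the change stayed between 0.33 and 0.42. Without scaling the covered length was 7.87 and 6.99 kb in ASC and 5.89 and 5.87 kb in QSC, a change of 0.31 with adjusted p = 0.229. Restricted to peaks with a deposited -log10 q of at least 5, the change of ASC against QSC was 0.23 (adjusted p = 0.424). The call also ended on the gene body alone (0.40, 0.0568), with 50 kb flanks (0.35, 0.0712), with the 4 libraries compared alone (0.38, 0.102) and with the replicate number as a block (0.38, 0.0521). The call between control siRNA and QSC ended without QSC replicate 1 (0.54, adjusted p = 0.0568), control siRNA replicate 1 (0.58, 0.0637) or control siRNA replicate 2 (0.59, 0.0632). The summed leukocyte marker loci were also higher, at 8.88 to 8.95 kb with control siRNA and 4.61 to 4.68 kb in ASC, against 0.253 to 0.353 kb in QSC. Their part in the Tead4 difference was not tested.

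With LncMyod siRNA, Tead4 lay below both control siRNA libraries (7.24 ± 0.226 against 9.48 ± 0.0443 kb, SD, n = 2 each). The change of -0.37 (SE 0.09, interval -0.59 to -0.15) had an unadjusted p of 0.0054 and a limma adjusted p of 0.283, so it was not past the threshold. Restricted to peaks with a deposited -log10 q of at least 5, the change was -0.03, and with lists of equal length it was -0.14.

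The peaks of Tead4 fell into 18 merged regions, of which 7 were held by all 8 libraries. One of these, chr6:128299471-128301084, lies across the higher-coordinate end of the gene. Against QSC, 6 of the 18 regions (33.3%) were specific to control siRNA, meaning held by both of its libraries and by neither QSC library, against 15.5% of 141301 regions in all. No Tead4 region was specific to QSC, against 8.09% of all regions. These shares were not tested.

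Of those 6 regions, chr6:128232057-128232433 and chr6:128279675-128279982 were held by all 4 cultured libraries and by no isolated one. The region chr6:128250591-128251477, about 23.9 kb from the lower-coordinate end, had the strongest peaks of the 6. Its fold enrichment, the authors' value against the library's own background, was 4.33 and 4.23 with LncMyod siRNA, 6.21 and 6.00 with control siRNA and 2.33 in ASC replicate 2, and no other library held a peak there. Within their own libraries these peaks ranked at percentiles 68.2 and 70.8 with LncMyod siRNA, 78.8 and 80.7 with control siRNA and 4.87 in ASC replicate 2. The region chr6:128291585-128292051 was held by both control siRNA libraries alone. The remaining 2, chr6:128225186-128225856 and chr6:128227475-128228308, were also held by LncMyod siRNA replicate 1, and the last of them by ASC replicate 1. At chr6:128259162-128260233, held by all libraries but QSC replicate 2, the percentile was 86.6 and 87.7 with LncMyod siRNA, 92.4 and 93.9 with control siRNA, 30.3 and 25.9 in ASC and 33 in QSC replicate 1.

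**Figure D2:**
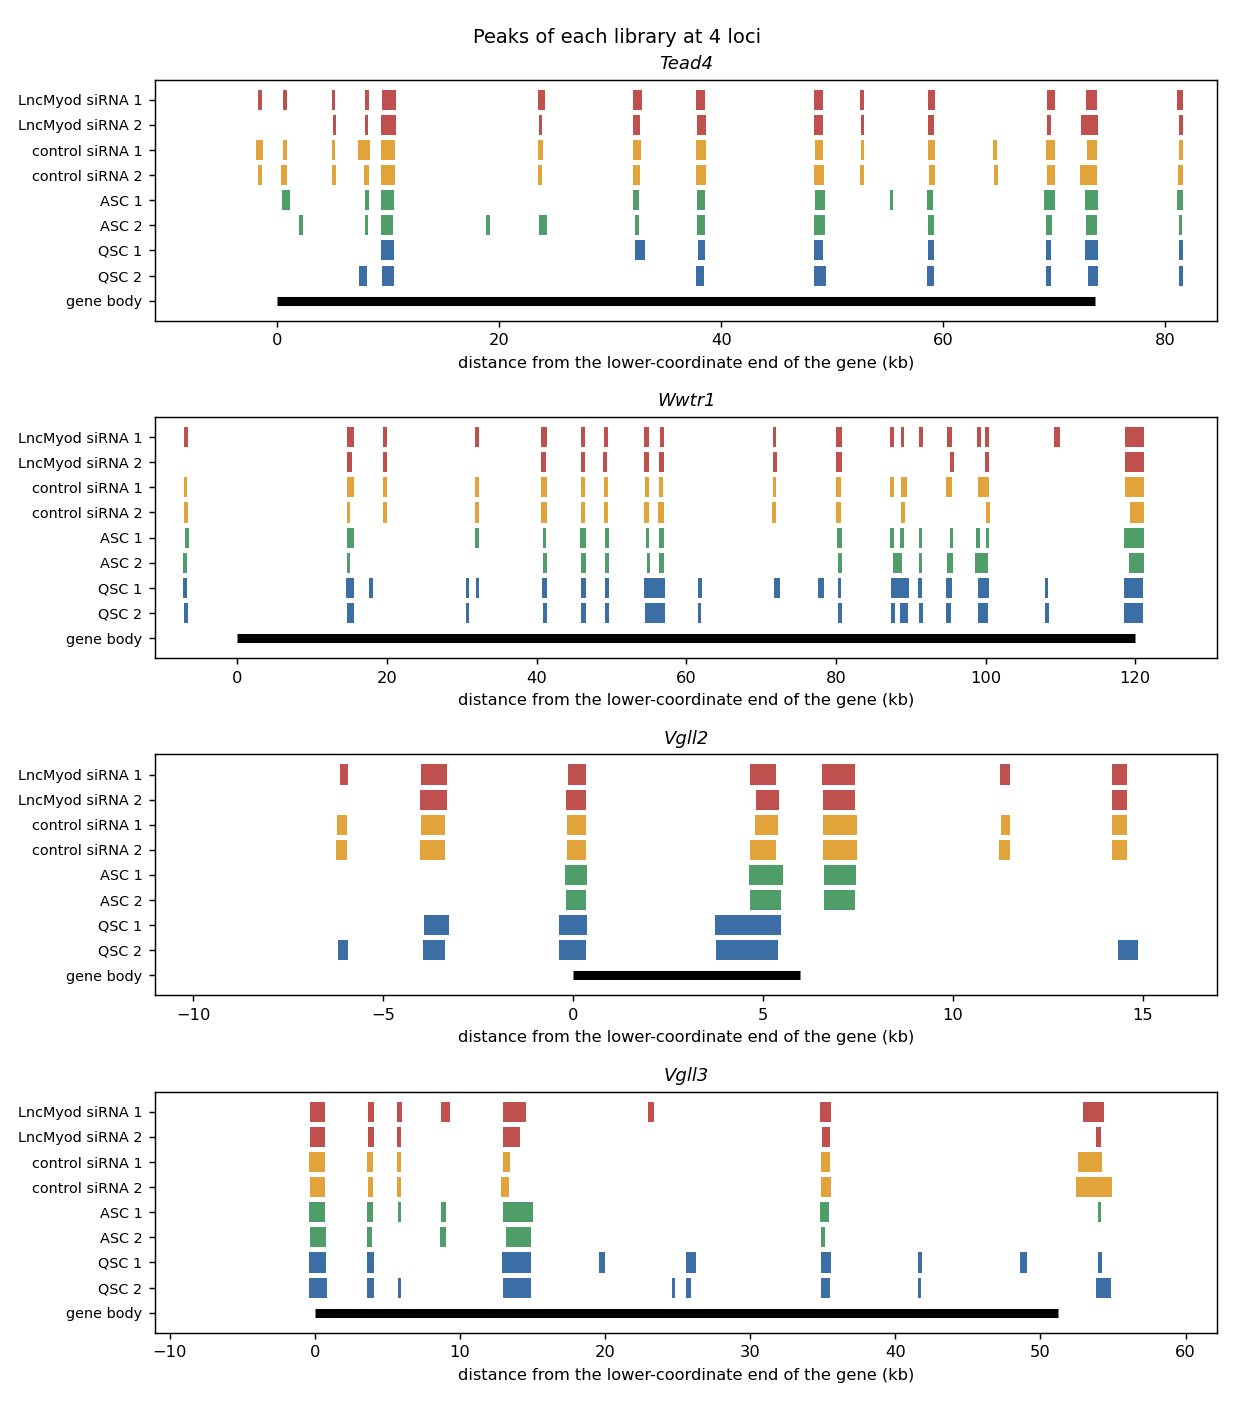
Peaks of each library (rows, 2 per group) at Tead4, Wwtr1, Vgll2 and Vgll3 against the distance in kb from the lower-coordinate end of the gene (x axis), with the gene body as a black bar and very narrow peaks drawn slightly wider to be visible. Tead4 shows 14 and 12 peaks with LncMyod siRNA, 15 and 15 with control siRNA, 11 and 12 in ASC and 8 and 8 in QSC, and Wwtr1 and Vgll3 show peaks in QSC alone.

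Tead1, the longest of the loci at chr7:112679356-112906784, encodes a broadly expressed Tead factor that binds MCAT elements of muscle genes. Its covered length was 17.1 and 13.9 kb with LncMyod siRNA, 17.8 and 19.6 kb with control siRNA, 18.1 and 16.5 kb in ASC, and 21.3 and 18.1 kb in QSC. The LncMyod siRNA libraries lay below the control siRNA and QSC libraries, and the other pairs of groups overlapped. The change with LncMyod siRNA was -0.27 (SE 0.13, interval -0.59 to 0.05, limma adjusted p = 0.592), and no other change exceeded 0.18 in size.

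Tead1 held 48 of the 151 regions at the 9 loci, with 15 held by all 8 libraries. The regions chr7:112700070-112700493 and chr7:112710053-112711085 were held by all 6 ASC and cultured libraries and by neither QSC library. Conversely, chr7:112744880-112745128 and chr7:112828400-112828671 were held by both QSC libraries alone. Both chr7:112752312-112754020 and chr7:112825107-112826738 were held by all libraries but ASC. Thus 8 of the 48 regions were specific to control siRNA and 3 to QSC in that comparison, shares of 16.7% and 6.25%, against 15.5% and 8.09% of all regions. Between LncMyod siRNA and control siRNA, 3 regions (6.25%) were specific to control siRNA and none to LncMyod siRNA, against 1.42% and 2.2% of all regions. The highest peak of the locus in QSC, at chr7:112720007-112721064, had a fold of 9.36 and 7.91, at percentiles 99.3 and 97.2. There the percentile was 81.9 and 92.4 with LncMyod siRNA, 85.5 and 81.2 with control siRNA and 86.5 and 96.2 in ASC.

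Tead2 and Tead3 had short loci with few peaks. Tead2 (chr7:45215792-45233468, plus strand), a Tead factor known from early embryos and neural tissue, had 3.77 and 1.62 kb with LncMyod siRNA, 4.24 and 1.76 kb with control siRNA, 4.11 and 3.46 kb in ASC, and 2.2 and 2.97 kb in QSC. Replicates of both cultured groups differed by more than those groups did, and the 95% interval of ASC against QSC (0.48, interval -0.51 to 1.47) was the widest of the 9. With peaks of -log10 q of at least 5 that change was -0.75. Of 6 regions, 1 was held by all 8 libraries, at the start of the gene (chr7:45215596-45217152).

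Tead3 (chr17:28331671-28350805, minus strand), a Tead factor prominent in placenta, had 3.97 and 4.18 kb with LncMyod siRNA, 4.66 and 4.56 kb with control siRNA, 4.23 and 5.42 kb in ASC, and 4.36 and 4.59 kb in QSC. All changes were within 0.16 in size. The regions nonetheless differed: chr17:28345117-28346111 was held by all 6 ASC and cultured libraries and by neither QSC library, and chr17:28337519-28337941 by the 4 cultured libraries alone. Both are weak, at percentiles of 0.155 to 16.7 within their libraries.

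Wwtr1 (chr3:57455644-57575910, minus strand), the coactivator Taz, was covered most in QSC. It had 9.51 and 8.58 kb with LncMyod siRNA, 11.9 and 8.04 kb with control siRNA, 9.91 and 11.7 kb in ASC, and 17.7 and 14.3 kb in QSC. Both QSC libraries lay above all 6 others. Among those, control siRNA overlapped both LncMyod siRNA and ASC, and the LncMyod siRNA libraries lay below the ASC libraries. The change was -0.67 in control siRNA cells against QSC (9.98 ± 2.75 against 16 ± 2.4 kb, SD, n = 2 each; SE 0.20, interval -1.14 to -0.21, limma adjusted p = 0.0586) and -0.54 in ASC against QSC (10.8 ± 1.27 kb in ASC; SE 0.20, interval -1.01 to -0.08, adjusted p = 0.121). Neither passed the threshold. With peaks of -log10 q of at least 5 both passed, at -0.86 (adjusted p = 0.0106) for control siRNA and -0.88 (0.0109) for ASC against QSC. With lists of equal length they also passed, at -0.71 (0.00954) and -0.49 (0.0385). In ASC against QSC the change did not pass without scaling (-0.61, adjusted p = 0.228) or with quantile normalization (-0.42, 0.221).

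The region chr3:57510013-57512763, inside the gene, was spanned by an unbroken peak in each QSC library. In the other libraries separate peaks lay towards its ends. Its covered length was 950 and 1187 bp with LncMyod siRNA, 1161 and 1432 bp with control siRNA, 1140 and 1149 bp in ASC, and 2742 and 2869 bp in QSC, although all 8 libraries held it. Over whole libraries, peaks of the cultures but not of ASC were narrower than those of QSC by more than a few bp. A further 3 regions were held by both QSC libraries alone: chr3:57486137-57486491, chr3:57517142-57517726 and chr3:57563559-57564018. The last, 12.1 kb downstream of the start, had folds of 4.67 and 5.28 in QSC, at percentiles 66 and 78. In control siRNA cells against QSC, 4 of the 21 Wwtr1 regions (19%) were specific to QSC, against 8.09% of all regions, and 1 to control siRNA. That one, chr3:57475099-57475473, was held by all 4 cultured libraries and by no isolated one. Peaks of all 8 libraries covered the start (chr3:57574099-57576865), over 1912 to 2874 bp.

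Yap1 (chr9:7931999-8004638, minus strand), the other coactivator, had the sparsest peaks. Its covered length was 4.49 and 2.22 kb with LncMyod siRNA, 4.31 and 3.75 kb with control siRNA, 2.41 and 3.39 kb in ASC, and 2.77 and 3.94 kb in QSC. Control siRNA lay above ASC by 0.43 (SE 0.31, limma adjusted p = 0.456), and the other groups overlapped. Only 1 of its 11 regions, across the start (chr9:8003281-8005063), was held by all 8 libraries, a share of 9.09% against 25% of all regions. There the fold was 4.54 and 4.48 with LncMyod siRNA, 5.23 and 4.63 with control siRNA, 4.87 and 4.36 in ASC, and 4.61 and 4.62 in QSC. The remaining regions were held in part of the libraries. Within the gene, chr9:7952756-7953357 was held by the 4 cultured libraries alone, and chr9:7982217-7982885 by both QSC libraries and LncMyod siRNA replicate 1. At that region the fold was 3.71 in LncMyod siRNA replicate 1 and 4.92 and 4.73 in QSC.

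Vgll2 (chr10:52022502-52028471, plus strand), a cofactor of Tead proteins known from skeletal muscle, had 2.85 and 3.17 kb with LncMyod siRNA, 3.44 and 3.58 kb with control siRNA, 2.31 and 2.62 kb in ASC, and 3.17 and 4.06 kb in QSC. ASC lay below every library of the other groups. The change was -0.47 in ASC against QSC (SE 0.14, interval -0.80 to -0.13, limma adjusted p = 0.0771) and 0.44 in control siRNA cells against ASC (SE 0.14, interval 0.10 to 0.78, adjusted p = 0.133), neither past the threshold. With control siRNA against QSC the change was -0.03 (interval -0.37 to 0.31).

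Although the totals were alike in control siRNA cells and QSC, some regions differed. In that comparison 2 of the 7 regions (28.6%) were specific to control siRNA and none to QSC, against 15.5% and 8.09% of all regions. A pair of regions flank the gene: chr10:52018478-52019233 upstream was held by all libraries but ASC, and chr10:52029072-52029991 downstream by all but QSC. A region centred 14.5 kb downstream of the start, chr10:52036687-52037391, had folds of 7.72 and 5.45 with LncMyod siRNA and 8.02 and 7.29 with control siRNA, at percentiles 95.9, 85.9, 92.3 and 90.9 in that order, no peak in ASC, and 2.73 in QSC replicate 2, at percentile 12.4. Inside the gene, chr10:52026244-52028033 was covered over 542 and 613 bp with LncMyod siRNA, 608 and 653 bp with control siRNA, 895 and 999 bp in ASC, and 1750 and 1777 bp in QSC. It was widest in QSC, and the groups did not overlap except LncMyod siRNA with control siRNA. Over whole libraries, median peak widths were also lower in the cultures, at 489 to 530 bp, than in ASC and QSC, at 588 to 601 bp. Counted on the gene body alone, the change of control siRNA against QSC was -0.85 (adjusted p = 0.00704), whereas with 50 kb on both sides it was 0.16. In control siRNA against ASC, 4 of its 7 regions (57.1%) were specific to control siRNA, against 11.7% of all regions.

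Vgll3 (chr16:65815189-65866368, plus strand), another Tead cofactor, had 5.32 and 3.97 kb with LncMyod siRNA, 4.56 and 5.44 kb with control siRNA, 4.98 and 4.7 kb in ASC, and 6.71 and 6.85 kb in QSC. Both QSC libraries lay above all the others, which overlapped. The change was -0.45 in ASC (4.84 ± 0.201 kb) against QSC (6.78 ± 0.0966 kb, SD, n = 2 each; SE 0.15, limma adjusted p = 0.101) and -0.41 in control siRNA cells (5 ± 0.621 kb) against QSC (SE 0.15, adjusted p = 0.11). Neither passed, but counted as the number of peaks both did, at -0.52 (adjusted p = 0.0433) and -0.82 (0.00879).

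Within the gene, 2 regions, chr16:65840799-65841479 and chr16:65856725-65857059, were held by both QSC libraries alone, and no region was specific to control siRNA against QSC. Another, chr16:65828016-65830244, was held by all 8 libraries but covered over 1279 and 1197 bp with LncMyod siRNA, 481 and 554 bp with control siRNA, 2067 and 2094 bp in ASC, and 2036 and 2145 bp in QSC. The control siRNA libraries were lowest there and the LncMyod siRNA libraries lay between them and ASC. Peaks of both cultured groups were narrower than those of ASC and QSC over whole libraries too. On the gene body alone, the change of control siRNA cells was -0.98 against QSC (adjusted p = 0.00666) and -0.64 against ASC (adjusted p = 0.0445), where the whole locus gave 0.04 against ASC. The region downstream of the gene, chr16:65867665-65870152, moved in the other direction, with 1185 and 376 bp with LncMyod siRNA, 1664 and 2437 bp with control siRNA, 200 and 0 bp in ASC, and 317 and 1173 bp in QSC.

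Vgll4 (chr6:114860621-114970007, minus strand), the Yap1 antagonist, had the smallest range of changes of the 9. It had 12.7 and 11.9 kb with LncMyod siRNA, 13.6 and 13.1 kb with control siRNA, 13.7 and 13.6 kb in ASC, and 12.5 and 13.6 kb in QSC. The LncMyod siRNA libraries lay below the control siRNA libraries. Changes ranged from -0.12 to 0.06 with an SE of 0.09, and 10 of its 21 regions were held by all 8 libraries. Exceptions were chr6:114892341-114892707, held by both QSC libraries alone, chr6:114917140-114918991, held by all 6 ASC and cultured libraries and neither QSC library, and chr6:114851444-114852301, held by the 4 cultured libraries alone.

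**Figure D3:**
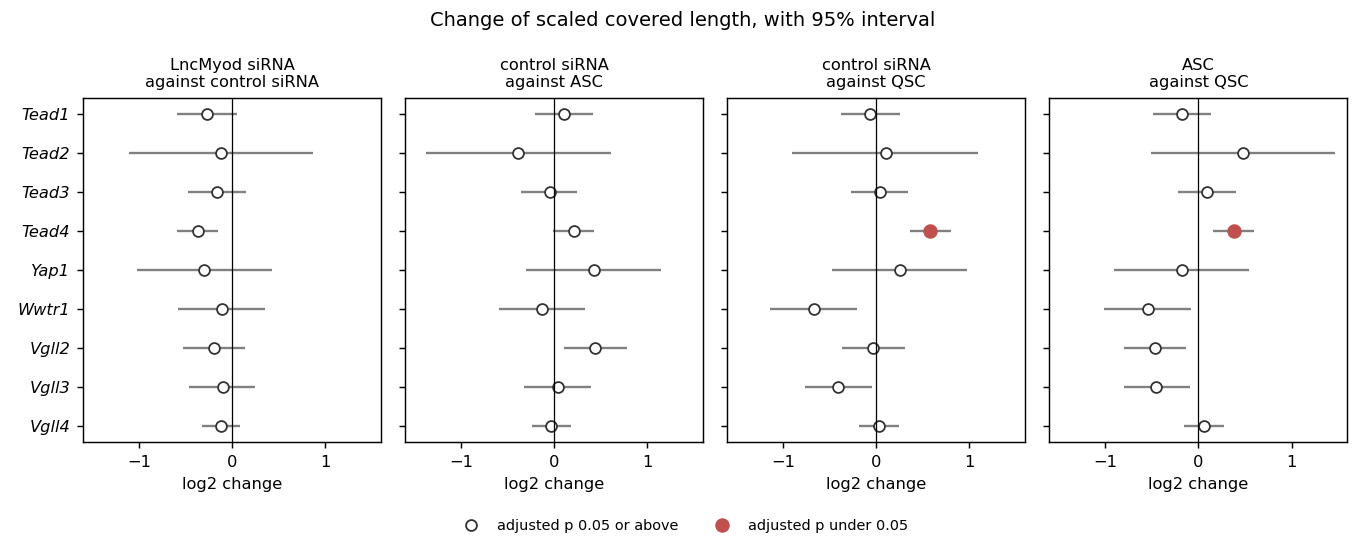
Log2 change of scaled covered length (x axis) with its 95% interval at each of the 9 loci (rows) in the 4 comparisons (panels), with filled points for adjusted p under 0.05. The filled points are Tead4 at 0.58 in control siRNA against QSC and at 0.38 in ASC against QSC, and all 9 points lie below 0 in LncMyod siRNA against control siRNA, which was not so for 3 loci with lists of equal length or 6 with peaks of -log10 q of at least 5.

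Over the 9 genes, 1 rose and none fell in ASC against QSC, and 4 lay above 0. Among all genes tested 7.56% rose and 5.25% fell, or 12.8% together, and the median change was -0.18 for the 9 genes and 0.06 for all. Groups did not overlap at 5 of the 9 loci, against 54.8% of all loci. For control siRNA against QSC, 1 rose and none fell, against 9.96% and 6.95% of all genes, or 16.9% together. The median was 0.03 for the 9 genes and 0.00 for all, and 3 loci did not overlap, against 67.3%. In control siRNA against ASC, none was called by limma, against 2.28% of all genes that rose and 1.72% that fell, or 3.99% together. At an unadjusted p under 0.05 there was 1 (Vgll2), and 6236 of all genes. The median was 0.04 for the 9 genes and -0.08 for all, and 3 loci did not overlap, against 56.1%. The comparisons share the control siRNA, ASC or QSC libraries and are not independent.

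With LncMyod siRNA against control siRNA none of the 9 was called by limma, against 0.0215% of all genes (6 genes), and at an unadjusted p under 0.05 there was 1 (Tead4), and 2740 of all genes. All 9 changes were below 0, from -0.37 at Tead4 to -0.10 at Vgll3, with a median of -0.16 for the 9 genes and -0.05 for all, but with lists of equal length 3 were above 0 (Tead2, Wwtr1 and Vgll4) and with peaks of -log10 q of at least 5, 6 were (Tead1, Tead3, Yap1, Wwtr1, Vgll2 and Vgll4), and with the gene body alone, 50 kb flanks or the number of peaks, 2 were each time. Groups did not overlap at 5 of the 9 loci, against 39.3% of all loci. Of the 151 regions, 1 was specific to LncMyod siRNA (Tead2) and 5 to control siRNA, shares of 0.662% and 3.31%, against 2.2% and 1.42% of all regions. The first count was 13 without LncMyod siRNA replicate 2 and 2 without control siRNA replicate 1, and the second was 22 without LncMyod siRNA replicate 1 and 8 without control siRNA replicate 1. Summed over the 9 loci, covered length was 66.7 and 57 kb with LncMyod siRNA, 74.1 and 69.2 kb with control siRNA, 67.6 and 69.8 kb in ASC, and 76.7 and 74.7 kb in QSC.

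Of the 151 regions at the 9 loci, 51 (33.8%) were held by all 8 libraries, against 25% of all regions, and 27 (17.9%) by 1 library, against 26%. All 9 loci had a region across a gene end that all 8 libraries held, but the share of all genes with such a region is not given here. Both QSC libraries alone held 8 (5.3%, against 5.18% of all regions), the 4 cultured libraries alone 7 (4.64%, against 4.78%), and all 6 ASC and cultured libraries without QSC 5 (3.31%, against 3.22%). Both control siRNA libraries alone held 3 (1.99%, against 0.832%), and all QSC and cultured libraries without ASC 3 (1.99%, against 1.2%). The QSC-only regions lay at Wwtr1 (3), Tead1 (2), Vgll3 (2) and Vgll4 (1). In ASC against QSC, 7 regions were specific to ASC and 13 to QSC (4.64% and 8.61%, against 5.99% and 8.54%). In control siRNA against ASC, 23 were specific to control siRNA and 4 to ASC (15.2% and 2.65%, against 11.7% and 2.64%), and in control siRNA against QSC, 25 and 12 (16.6% and 7.95%, against 15.5% and 8.09%). The ASC-specific count against QSC was 14 and 15 without ASC replicate 1 and 2, that against control siRNA 9 and 11, and the QSC-specific count without QSC replicate 2 was 21 against ASC and 20 against control siRNA.

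**Figure D4:**
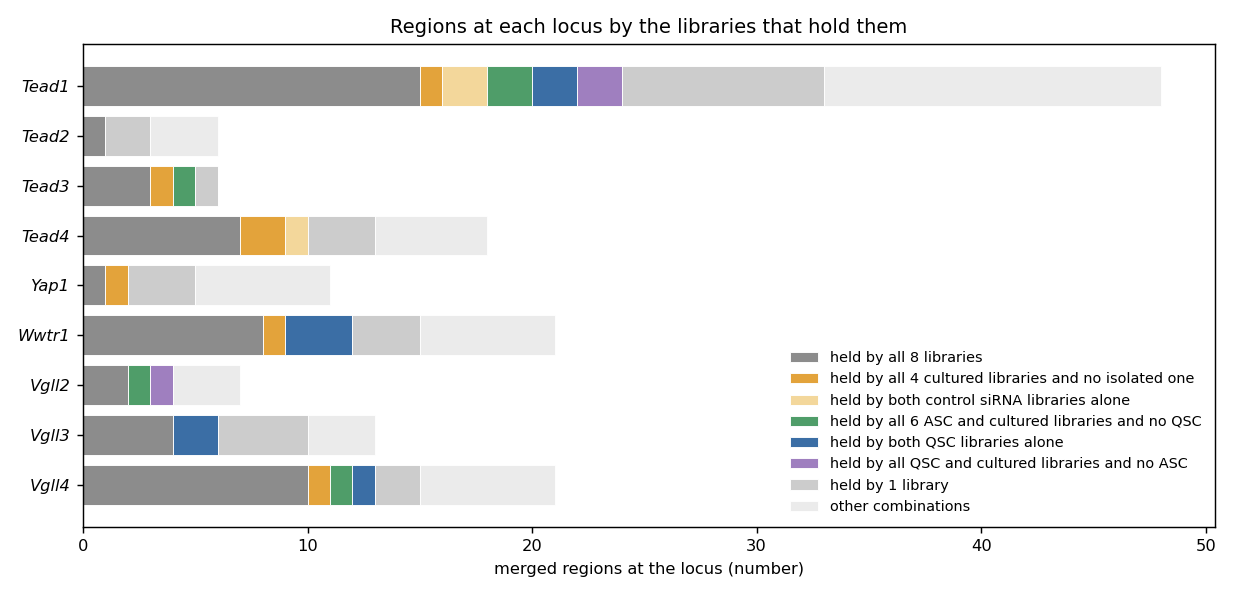
Number of merged regions (x axis) at each of the 9 loci (rows), stacked by which libraries hold them. Tead4 has no region held by QSC alone and 2 held by the 4 cultured libraries alone, and Wwtr1 has 3 held by QSC alone.

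The genes that act with these factors were taken from 3 lists of 46 entries, all matched and tested. Of 21 genes of the Hippo pathway upstream of Yap1 and Wwtr1, 1 rose and 1 fell in ASC against QSC, 2 rose in control siRNA against QSC, and none was called by limma in the other 2 comparisons, where 2 (control siRNA against ASC) and 4 (LncMyod siRNA against control siRNA) had an unadjusted p under 0.05. An unadjusted p under 0.05 was held by 6236 of 27938 genes in control siRNA against ASC and by 2740 in LncMyod siRNA against control siRNA. Among all genes 12.8% were called in ASC against QSC, 16.9% in control siRNA against QSC, 3.99% in control siRNA against ASC and 0.0215% in LncMyod siRNA against control siRNA. Medians were 0.07, 0.14, 0.04 and -0.11 in that order. Stk3, the Hippo kinase also called Mst2, had 1.44 and 0.827 kb with LncMyod siRNA, 1.92 and 1.54 kb with control siRNA, 1.21 and 1.3 kb in ASC, and 2.82 and 2.48 kb in QSC. It fell in ASC against QSC by 0.84 on the log2 scale (adjusted p = 0.0424). Wwc1, a scaffold that activates the kinases, had 7.76 and 7.73 kb with LncMyod siRNA, 7.51 and 7.22 kb with control siRNA, 8 and 6.61 kb in ASC, and 5.07 and 5.29 kb in QSC, and it rose in ASC (0.45, adjusted p = 0.0427) and in control siRNA cells (0.47, 0.0317) against QSC. Taok1, a kinase upstream of Stk3, had 5.04 and 4.66 kb with LncMyod siRNA, 5.27 and 5.38 kb with control siRNA, 3.82 and 4.15 kb in ASC, and 3.36 and 3.51 kb in QSC, and it rose in control siRNA cells against QSC (0.57, 0.0141). All 4 calls lost significance when libraries were left out, with adjusted p from 0.118 to 0.213 for Stk3 without any 1 of its 4 libraries, 0.109 to 0.175 for Wwc1 in ASC without either QSC library or ASC replicate 1, 0.117 to 0.149 for Wwc1 in control siRNA without any 1 library, and 0.0646 to 0.0849 for Taok1 without any 1.

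Of 20 known target genes of Yap1, Wwtr1 and Tead, 1 rose and 1 fell in ASC against QSC, 3 rose and 2 fell in control siRNA against QSC, 1 fell in control siRNA against ASC, and none was called by limma with LncMyod siRNA against control siRNA, where 2 had an unadjusted p under 0.05. An unadjusted p under 0.05 was held by 2740 of 27938 genes in that last comparison. Over all genes 12.8% were called in ASC against QSC, 16.9% in control siRNA against QSC, 3.99% in control siRNA against ASC and 0.0215% with LncMyod siRNA. Medians were 0.13, 0.09, 0.04 and -0.07 in that order. Crim1, a transmembrane protein that binds growth factors, had 3.74 and 4.9 kb with LncMyod siRNA, 4.21 and 4.54 kb with control siRNA, 3.58 and 3.59 kb in ASC, and 9.17 and 10.1 kb in QSC. It fell in ASC against QSC by 1.31 (adjusted p = 0.00373) and in control siRNA cells by 1.05 (adjusted p = 0.00545), and the second call had adjusted p = 0.0536 without QSC replicate 2. Myof, a membrane-repair protein of myoblasts, had 12.5 and 13.2 kb with LncMyod siRNA, 13 and 13.5 kb with control siRNA, 12.4 and 12.8 kb in ASC, and 7.19 and 8.05 kb in QSC, with QSC below all the others. It rose in ASC (0.69, adjusted p = 0.00715) and in control siRNA cells (0.76, 0.00481) against QSC.

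Asap1, an Arf GTPase-activating protein, had 18.1 and 15.3 kb with LncMyod siRNA, 13 and 11.8 kb with control siRNA, 24 and 22.4 kb in ASC, and 20.6 and 19.3 kb in QSC. It was lowest with control siRNA, where it fell against ASC by 0.87 (adjusted p = 0.0169) and against QSC by 0.66 (0.0106). Igfbp3, which binds insulin-like growth factors, averaged 3.31 ± 0.572 kb in control siRNA cells and 1.59 ± 0.439 kb in QSC (SD, n = 2 each) and rose by 0.88 (adjusted p = 0.0286), but its number of peaks gave -0.18. Ankrd1, an ankyrin-repeat protein of muscle, averaged 4.66 ± 0.738 kb in control siRNA cells and 2.92 ± 0.221 kb in QSC and rose by 0.59 (adjusted p = 0.0287). The calls of Asap1 against QSC (adjusted p 0.0552 to 0.0806), Igfbp3 (0.0611 to 0.16) and Ankrd1 (0.0572 to 0.149) ended without any 1 library. That of Asap1 against ASC ended without ASC replicate 2 (0.0713) or either control siRNA library (0.119 and 0.123).

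Among 5 muscle genes with a known MCAT element, none was called by limma in ASC against QSC (median -0.23) or in LncMyod siRNA against control siRNA (median -0.22), where 1 each had an unadjusted p under 0.05. In control siRNA cells 2 rose against ASC (median 0.95) and 2 against QSC (median 0.73), in comparisons that share the control siRNA libraries. Over all genes 2.28% rose against ASC and 9.96% against QSC. An unadjusted p under 0.05 was held by 7841 of 27938 genes in ASC against QSC and by 2740 in LncMyod siRNA against control siRNA. Tnnt2, cardiac troponin T, which is also made in differentiating muscle, had 3.53 and 5.3 kb with LncMyod siRNA, 4.72 and 4.55 kb with control siRNA, 1.84 and 2.23 kb in ASC, and 1.45 and 1.21 kb in QSC. It rose by 1.02 against ASC (adjusted p = 0.0388) and by 1.49 against QSC (adjusted p = 0.00533). Acta1, skeletal actin, had 4.47 and 4.65 kb with LncMyod siRNA, 4.28 and 3.94 kb with control siRNA, 2.11 and 2.3 kb in ASC, and 2.16 and 1.91 kb in QSC. It rose by 0.77 against ASC (adjusted p = 0.0257) and by 0.86 against QSC (adjusted p = 0.00606), but on the gene body alone the changes were -0.77 and -0.65, so the rise was counted in the flanking 10 kb. Leaving out any 1 library ended both calls against ASC, with adjusted p from 0.103 to 0.191 for Tnnt2 and 0.0582 to 0.149 for Acta1, and leaving out QSC replicate 2 ended that of Tnnt2 against QSC (0.0546).

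Other settings also ended calls of these pathway genes. By the number of peaks, the change of Tnnt2 was 0.01 against ASC, not past the threshold, and 0.51 against QSC (adjusted p = 0.13), and that of Acta1 was 0.21 (0.497) and 0.50 (0.135). In control siRNA cells against QSC the same measure gave 0.11 for Ankrd1 (0.732) and 0.25 for Wwc1 (0.335). On the gene body alone, Tnnt2 was at 0.63 against ASC (0.313). With peaks of -log10 q of at least 5, Asap1 was at -0.20 against QSC (0.331), and with 50 kb flanks Stk3 was at -0.48 in ASC against QSC (0.179). Without scaling, the calls ended for Myof (0.63, 0.0592), Wwc1 (0.39, 0.316) and Stk3 (-0.88, 0.118) in ASC against QSC, for Asap1 in control siRNA against ASC (-0.71, 0.196), and for Wwc1 (0.56, 0.126), Asap1 (-0.57, 0.185) and Ankrd1 (0.67, 0.0678) in control siRNA against QSC.

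The genes whose pattern over the 8 libraries was closest to each member were taken by the smallest root mean square difference of log2 values centred on each gene's mean, over 10076 to 10079 protein-coding genes. Closest to Tead4 were E2f8, a cell cycle repressor of the E2F family, at 0.039, and Pikfyve, a lipid kinase, at 0.051, against a median of 0.295. Closest to Wwtr1 were Gulp1 (0.079) and Ica1 (0.112), against a median of 0.400. For Vgll3 they were Ptpn4 (0.054) and Ncoa3 (0.075), for Vgll2 Adamts1 (0.075) and Car12 (0.082), and for Tead1 Spry1 (0.050) and Fam172a (0.066). The smallest differences of all were those of Vgll4 with Ldlrad4 (0.032, median 0.228) and Tead3 with Rev3l (0.038, median 0.236). Yap1 and Tead2 had the least close matches of the 9, with smallest differences of 0.144 (median 0.397) and 0.173 (median 0.480). The 8 values of a gene share their libraries, so these are descriptions.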

How the data were processed

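ATAC-seq of 8 libraries, 2 in each of 4 groups, was deposited as 1 broad peak list a library. The submitters' processing notes name MACS2 2.1.1, bedtools 2.26.0, SAMtools 1.3, Picard 2.9.2, Bowtie2 2.3.2, Trimmomatic 0.36, bcl2fastq 2.19 and the build mm10, with no settings. In each list the authors deposited a fold enrichment per peak, a −log10 p and a −log10 q, and a score. The fold is each peak's own value, used here only to describe and rank peaks within a library, and the −log10 q only as a filter. Peaks were called by the authors on each library separately.

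From these lists the base pairs under peaks were summed per gene body with 10 kb each way (RefSeq, GRCm38) and scaled to the library's total covered length. Genes with at least 200 bp in at least 2 libraries were kept. log2(scaled bp + 500) was fitted with limma 3.58.1 (R 4.3.3) on 4 group means over all 8 libraries with a trended prior. The Benjamini-Hochberg adjustment ran over 27938 genes within each of 4 comparisons. All adjusted p-values given are from limma. On simulated data for ASC against QSC over 27938 genes, 54% of changes of log2 size 1 and 100% of size 2 were recovered, with 2 false calls. The simulation gave every gene the same spread and changed 200 loci, so these rates need not hold for the real data. Peaks that overlapped or touched were merged into 141301 regions with a median width of 648 bp, and a library held a region with an overlap of at least 1 bp. The 9 genes, the 3 pathway lists and the marker lists were chosen with earlier results of these data known. Every one of the 9 genes is described, and a pathway gene is named where it passed the test. Alternatives were no scaling, quantile normalization, a larger pseudocount, a stricter q, equal list lengths, other flanks, the number of peaks, other fits, no filter and leaving out each library. Tead1 and Tead4 promoters were not used here. Python 3.11.15 with numpy 2.4.6 and pandas 2.3.3 served the rest.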

Additional observations from a re-analysis of the deposited data

How the results depend on the processing

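Of 540 values of the 9 genes under alternatives, 440 kept their direction and their side of the threshold, 13 kept their direction but were no longer past it, 17 passed only there and 70 changed direction, none of which had a main size above 0.48. The 2 rises of Tead4 kept their direction under every alternative run. The cause was not tested for any change below.

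In ASC against QSC, where 1 of the 9 genes was called, the number called was 0 with no scaling, 0 with the 4 libraries compared alone, 0 without any 1 of them, 2 with quantile normalization, 2 with −log10 q of at least 5 (Wwtr1 and Vgll3, without Tead4), 2 by the number of peaks and 3 with lists of equal length. For control siRNA against ASC (none called) it was 2 with equal lengths and 1 on the gene body alone. With control siRNA against QSC (1 called) it was 2 with the stricter q, 50 kb flanks or the number of peaks, 3 with equal lengths, 4 on the gene body, and 0 to 1 when a library was left out. Same-numbered libraries did not deviate together (correlations 0.00783 to 0.0964). No pairing was seen, but these correlations cannot exclude that same-numbered libraries shared animals or batches. With a replicate block the number called in ASC against QSC was 0, with Tead4 at adjusted p = 0.0521, and the loci called over all genes were 3193, 551, 4354 and 0 in ASC against QSC, control siRNA against ASC, control siRNA against QSC and LncMyod siRNA against control siRNA, where the main counts were 3580, 1116, 4726 and 6.

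Over all genes, counts that differed from the main one by a factor of more than 1.5, up or down, are given here. Those without a library are not listed for ASC against QSC. There the count fell by more than that factor without either QSC library or without ASC replicate 2. The others in ASC against QSC were 1820 with no scaling, 7119 with 50 kb, 1186 with 4 libraries and 2042 with no filter. For control siRNA against ASC they were 368 with no scaling, 2071 with the stricter q, 3009 with equal lengths, 1772 with 50 kb, 704 with 4 libraries, and 734 with no filter, and leaving out a library gave 0 to 707. For control siRNA against QSC they were 7863 with 50 kb and 3102 with no filter, and leaving out a library gave 1016 to 1291. With LncMyod siRNA against control siRNA they were 38 with no scaling, 10 with quantile normalization or the larger pseudocount, 14 with the stricter q, 23 with equal lengths, 50 on the gene body, 3 with 50 kb, 200 by the number of peaks, 0 with 4 libraries and 110 with no filter, and leaving out a library gave 0 to 343. Of the calls, 48.4% were rises with quantile normalization in ASC against QSC, where the main share was 59%, and 76.9% with no scaling in control siRNA against ASC, where it was 57% and the median of all genes moved by 0.12.

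Changes of direction in ASC against QSC were Tead1 0.0025 (quantile), Vgll4 -0.0048 (no scaling), Yap1 0.00031 (50 kb), and, with the stricter q, Tead2 -0.75, Tead3 -0.05 and Vgll4 -0.22. Control siRNA against ASC had Tead3 0.10, Wwtr1 0.03 and Vgll4 0.13 with no scaling, Tead3 0.00019 with quantile normalization, Tead1 -0.10, Tead2 0.53, Wwtr1 0.02 and Vgll4 0.27 with the stricter q, Tead1 -0.16, Tead3 0.17 and Vgll4 0.03 with equal lengths, Tead3 0.16, Vgll2 -0.32, Vgll3 -0.64 and Acta1 -0.77 on the gene body, Vgll4 0.09 with 50 kb, and Vgll3 -0.30 by the number of peaks. Control siRNA against QSC had Tead1 0.03 and Vgll2 0.06 with no scaling, Tead1 0.11 with quantile normalization, Tead2 -0.22, Tead3 -0.18, Yap1 -0.10 and Vgll2 0.01 with the stricter q, Tead2 -0.62 and Vgll2 0.20 with equal lengths, Acta1 -0.65 on the gene body, Vgll2 0.16 with 50 kb, and Tead1 0.03, Tead2 -0.49, Vgll2 0.51, Vgll4 -0.02 and Igfbp3 -0.18 by the number of peaks. In LncMyod siRNA against control siRNA they were Tead1 0.02, Tead3 0.16, Yap1 0.01, Wwtr1 0.28, Vgll2 0.10 and Vgll4 0.10 with the stricter q, Tead2 0.01, Wwtr1 0.19 and Vgll4 0.02 with equal lengths, Tead2 0.05 and Vgll3 0.38 on the gene body, Tead2 0.07 and Tead3 0.09 with 50 kb, and Tead2 0.24 and Vgll3 0.11 by the number of peaks.

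Without a library, the changes spanned 0 as follows. In ASC against QSC Tead3 ranged from -0.07 to 0.25 and Yap1 from -0.40 to 0.04. Between control siRNA and ASC Tead2 ranged from -0.92 to 0.15, Tead3 from -0.21 to 0.11, Wwtr1 from -0.40 to 0.14 and Vgll3 from -0.08 to 0.15. Between control siRNA and QSC Tead1 ranged from -0.18 to 0.05, Tead2 from -0.44 to 0.63, Vgll2 from -0.18 to 0.13 and Vgll4 from -0.02 to 0.09. In LncMyod siRNA against control siRNA Tead2 ranged from -0.66 to 0.42, Yap1 from -0.73 to 0.14, Wwtr1 from -0.38 to 0.16 and Vgll3 from -0.29 to 0.09.

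Specific regions at the 9 loci numbered, with the stricter q, 3 for ASC and 8 for QSC in that pair, 1 for ASC against control siRNA, 7 for QSC against control siRNA and 0 for LncMyod siRNA. With equal lengths they were 13 for control siRNA and 12 for ASC in that pair, 13 for control siRNA against QSC and 3 for control siRNA against LncMyod siRNA. With 50 kb they were 11 for ASC against QSC, 38 for control siRNA against QSC and 2 for LncMyod siRNA, and on the gene body 0 for LncMyod siRNA. Asking for overlap of at least 0.5 of a region gave 9 for ASC against control siRNA, and 5 for LncMyod siRNA and 3 for control siRNA in that pair. Without a library, when 1 library stands for its group, they were 9 to 15 for ASC and 13 to 21 for QSC in that pair, 5 to 11 for ASC against control siRNA, 13 to 20 for QSC against control siRNA, and 1 to 13 for LncMyod siRNA and 5 to 22 for control siRNA in that pair.

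Of 240 values of the 16 pathway calls under alternatives, 156 kept the call, 81 did not and 3 changed direction. The calls of Crim1 in ASC against QSC and Myof in control siRNA against QSC were kept under all of them. Peak lists carry no reads, so depth could not be weighed.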
